A study of Mus musculus with 41 samples.

Results

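Livers of mice with an IgAk genotype name were set against livers without it in 2 settings on a high-fat diet (HFD), by polyA RNA-seq of male C57BL/6 mice. The first difference was IgAkCLM minus B6 in livers that the labels call fatty and healthy (HFD control), and the second was IgAkMup minus MupHe in livers with NASH (steatohepatitis). Each group held 3 libraries, so 12 of the 41 samples of the series entered these differences, and they were taken by the names of their columns in the deposited table of regularized log2 (rlog2) values. Those names also carry a tag that the labels do not explain, and it ran in opposite directions. Tri N marked IgAkCLM in HFD control and MupHe in NASH, while SS N marked B6 in HFD control and IgAkMup in NASH. The mean of the 2 differences therefore follows genotype and cancels the tag, while the first minus the second, divided by 2, cancels genotype and gives Tri N minus SS N. Before the division by 2, that quantity is also how far the genotype difference itself differed between HFD control and NASH livers, so the tag and the setting cannot be told apart.

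IgA is the antibody class of mucosal surfaces, made by plasma cells and carried across epithelia as dimers joined by the J chain. In liver it reaches bile by the polymeric immunoglobulin receptor, Pigr. In the published study of these mice, IgA-deficient animals were compared with IgA-competent ones, with and without a MUP-uPA transgene, which places urokinase under a major urinary protein promoter active in hepatocytes. The labels give neither the alleles behind the genotype names nor ages, and they do not say that replicates came from different mice. The p-values therefore rest on the spread among these libraries, which may be technical. Igha, the IgA heavy chain gene, was not analysed here, and the genotype names were not checked at that gene. Jchain was at 6.01, 4.73 and 6.00 in IgAkCLM HFD livers, against 4.81, 5.32 and 5.50 in B6 HFD livers. In NASH it was at 7.10, 6.51 and 5.81 in IgAkMup livers, against 7.24, 6.69 and 6.50 in MupHe livers. The groups overlapped in both settings, and the mean difference was 0.02 ± 0.26 (SE; adjusted p = 0.99).

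Throughout, values are the authors' rlog2 values, a difference of 1 being a doubling before the shrinkage that rlog applies to weakly expressed genes. Of 24511 genes, 12227 averaged 3 or more in the 12 libraries and were tested with limma, p-values being adjusted by Benjamini-Hochberg over all of them at a threshold of 0.05. Alb, the albumin gene, stood between 19.2 and 19.8 in all 12 libraries, the level of a liver sample. Libraries of a group correlated at r = 0.986 to 0.995 over genes and libraries of different groups at 0.971 to 0.992. The table holds no counts, so sequencing depth is unknown and values carry no interval for counting error.

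Serpina3c, a secreted serine protease inhibitor of the clade A3 that is expanded in mice, was the gene that followed the IgAk name most. It was at 10.18, 9.74 and 8.94 in IgAkCLM HFD livers, against 3.22, 3.30 and 3.22 in B6 HFD livers. In NASH it was at 9.10, 9.08 and 8.99 in IgAkMup livers, against 3.22, 3.39 and 3.07 in MupHe livers. The IgAk and other libraries formed separate bands in both settings, whichever tag they carried. The mean of the differences was 6.10 ± 0.16 (SE), a fold of 68.8 on the rlog2 scale, with an adjusted p of 1.02e-10. Tri N minus SS N was 0.27 ± 0.16 (adjusted p = 0.22).

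In all, 12 genes passed the threshold in the mean of the differences with the same sign in both, 9 higher (0.0736% of the genes tested) and 3 lower (0.0245%) in IgAk livers. Together they are 0.0981% of the genes tested. Those higher were the serpins Serpina3c and Serpina11, the kinase Dclk3, the sterol enzymes Tm7sf2 and Mvk, the sulphate donor and transfer enzymes Papss1 and Sult1a1, the cytokine gene Il18, and Fdx1, the mitochondrial ferredoxin that passes electrons to P450 enzymes. Those lower were Nnmt and Nnt, both enzymes of nicotinamide metabolism, and Tymp, thymidine phosphorylase. Against them stood 3161 genes, 25.9% of those tested, that passed the threshold in Tri N minus SS N with opposite signs in the 2 differences, 1611 higher and 1550 lower in Tri N libraries.

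**Figure D1:**
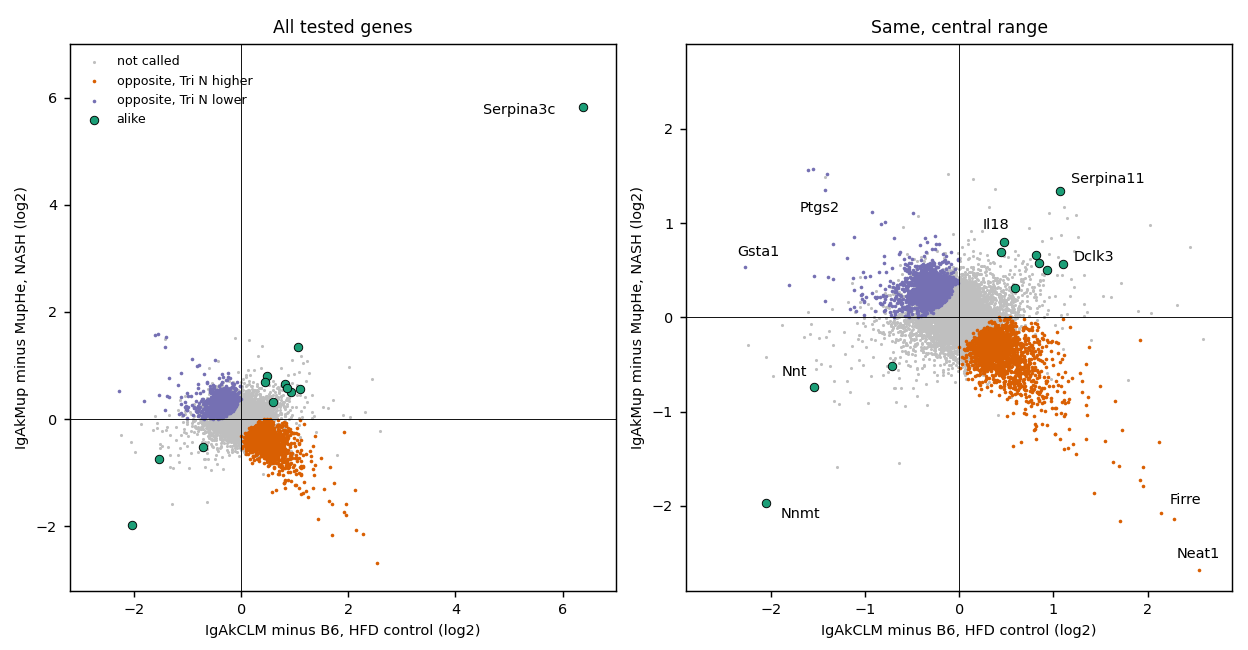
Each point is 1 of 12227 genes, with IgAkCLM minus B6 in HFD control livers on the x axis and IgAkMup minus MupHe in NASH livers on the y axis, both in log2 units; the right panel is the central range of the left. The 12 genes moving alike (green) lie in the upper right and lower left quadrants, with Serpina3c alone near 6 on both axes, and the 3161 genes moving in opposite ways lie along the falling diagonal (orange, higher in Tri N; purple, lower in Tri N).

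The promoters of 4 of the 12 genes are shown because they belong to the serpins and the sterol enzymes that were higher in IgAk livers. Each runs 5′ to 3′ from 250 bases before to 50 bases after a transcript start in RefSeq on GRCm38.p6. Capitals mark TATAAA in Serpina3c and CCAAT in the others, in either orientation.
Serpina3c, chr12:104153823-104154122, minus strand: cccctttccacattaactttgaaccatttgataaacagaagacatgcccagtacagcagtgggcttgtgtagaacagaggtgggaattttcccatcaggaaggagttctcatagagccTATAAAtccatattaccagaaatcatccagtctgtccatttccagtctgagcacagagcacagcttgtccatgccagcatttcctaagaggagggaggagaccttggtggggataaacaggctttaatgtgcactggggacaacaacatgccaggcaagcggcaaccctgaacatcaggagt
Serpina11, chr12:103989908-103990207, minus strand: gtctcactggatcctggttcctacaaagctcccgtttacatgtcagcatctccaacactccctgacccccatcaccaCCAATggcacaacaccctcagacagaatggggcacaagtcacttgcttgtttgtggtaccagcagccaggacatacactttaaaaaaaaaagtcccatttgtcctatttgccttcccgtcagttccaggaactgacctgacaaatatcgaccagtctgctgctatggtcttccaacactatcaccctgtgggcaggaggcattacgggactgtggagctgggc
Mvk, chr5:114444019-114444318, plus strand: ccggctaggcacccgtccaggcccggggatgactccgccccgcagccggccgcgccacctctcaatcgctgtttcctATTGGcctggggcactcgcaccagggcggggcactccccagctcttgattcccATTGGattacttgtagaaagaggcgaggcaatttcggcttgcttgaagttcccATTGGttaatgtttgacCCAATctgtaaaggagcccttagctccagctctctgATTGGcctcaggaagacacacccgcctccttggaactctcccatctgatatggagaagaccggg
Tm7sf2, chr19:6067801-6068100, minus strand: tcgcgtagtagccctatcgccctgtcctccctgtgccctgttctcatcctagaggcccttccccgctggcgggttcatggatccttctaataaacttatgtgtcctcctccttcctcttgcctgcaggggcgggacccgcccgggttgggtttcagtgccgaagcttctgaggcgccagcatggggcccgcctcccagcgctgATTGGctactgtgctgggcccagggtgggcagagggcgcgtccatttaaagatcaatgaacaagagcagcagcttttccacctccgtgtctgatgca
RefSeq promoter entries were matched for 9 of the 12 genes, in 11 windows, with none for Dclk3, Nnmt and Nnt. CCAAT was found in 9 of the 11 windows, or in 7 of the 9 genes, since the windows of Serpina11 overlap in all but 14 bases. It was found in 37.9% of 27025 promoters, 1 for each gene of that table, the first window listed. Shares of all promoters given below are over these first windows. The window of Mvk held 5 matches and that of Tm7sf2 held 1. TATAAA was found in 2 of the 11 windows, those of Serpina3c and Il18, and in 14.2% of all promoters. The GC box GGGCGG was found in 4 windows against 35.9% of all promoters. The sterol response element TCACNCCAC was found in 1 window, the second of Papss1. It was in no first window of the 9 genes, against 1.22% of the first windows of all genes. CACGTG and the palindrome TTGCGCAA were found in 0 of the 11, against 7.24% and 0.185% of all promoters. All were searched on both strands, and a match is a description of the letters, not of a site in use.

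Serpina11, a liver serpin of the same gene cluster, was at 10.49, 10.41 and 9.89 in IgAkCLM HFD livers, against 9.19, 9.34 and 9.05 in B6 HFD livers. IgAkMup NASH livers were at 10.41, 9.91 and 10.14, against 8.77, 8.51 and 9.15 in MupHe NASH livers. All 6 IgAk libraries thus lay above all 6 others, and the mean difference was 1.21 ± 0.13 (adjusted p = 0.0018). Of 16 tested genes of the Serpina family, 2 were called alike and both were higher. The median mean difference of the family was -0.10, beside -0.0001 for all genes. Serpina3m, another A3 serpin, had a mean difference of 0.62 ± 0.12 that missed the threshold (adjusted p = 0.094). Other tested A3 genes moved less, with -0.03 for Serpina3f, -0.18 for Serpina3g, -0.18 for Serpina3k and 0.15 for Serpina3n (adjusted p from 0.65 to 0.94). Serpina1d had -0.98 ± 0.20 (adjusted p = 0.11). Serpina6, which encodes the corticosteroid carrier of plasma, was higher in IgAkMup than in MupHe NASH livers by 0.96 (adjusted p = 0.028) and differed by 0.36 in HFD controls (adjusted p = 0.28). Reads of such near-identical paralogs can be split between genes, so the share of any one of them is uncertain.

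Serpina3c and Serpina11 lie at -9.11 and -9.28 Mb from Igha on chromosome 12, the sign meaning a lower coordinate, in the RefSeq annotation of GRCm38.p6, which is the mm10 build that the submitters' notes name. Within 20 Mb of Igha there were 123 tested genes, 1.03% of those with a position. That window held 2 of the 12 genes moving alike, or 16.7%, and 32 of the genes moving in opposite ways, which are 26% of the window beside 25.9% of all genes tested. The mean difference passed 0.5 in size for 8.13% of genes in the window, against 1.59% of all genes tested. Of those 10 genes, all but Ifi27l2b, Kcnk10 and Tc2n were serpins of the cluster that holds Serpina3c. Kcnk10, a potassium channel gene at -14.83 Mb, had a mean difference of -1.10 ± 0.21 (adjusted p = 0.091), and Tc2n had -0.64 ± 0.13 (adjusted p = 0.11). The labels do not say how the IgAk allele was made, and the part of linked sequence in these values was not tested.

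**Figure D2:**
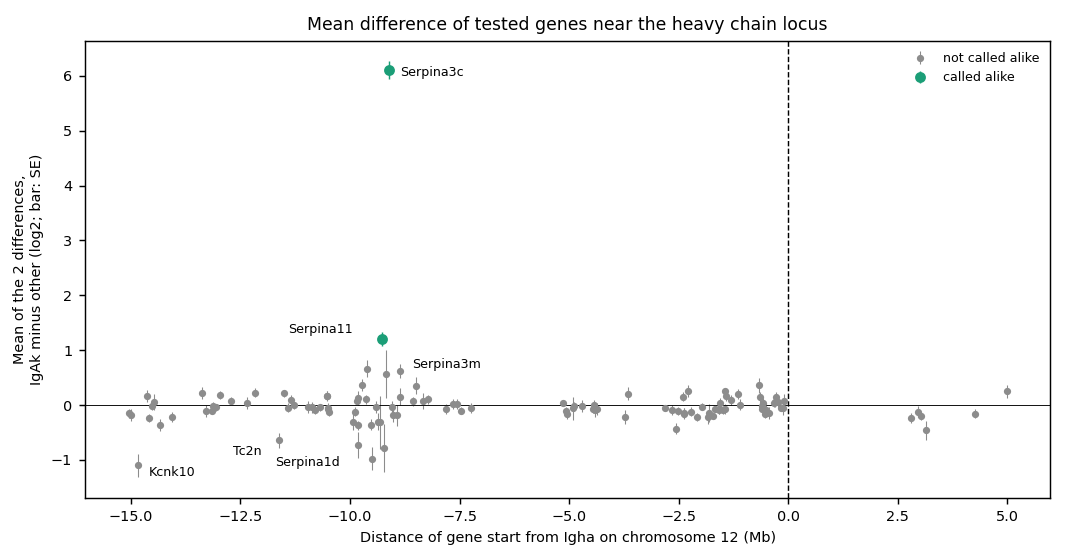
Each point is 1 of 123 tested genes within 20 Mb of Igha on chromosome 12, with its distance from Igha in Mb on the x axis and the mean of the 2 differences (IgAk minus other, log2) with its SE on the y axis. Serpina3c at 6.10 and Serpina11 at 1.21 are the 2 called genes (green), and both stand in the cluster of serpins near -9 Mb.

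Nnt and Nnmt fell in IgAk livers. Nnt, the proton-pumping transhydrogenase of the inner mitochondrial membrane, was at 9.003, 9.35 and 9.16 in IgAkCLM HFD livers, against 10.83, 10.58 and 10.73 in B6 HFD livers. With NASH, IgAkMup livers were at 9.14, 9.23 and 9.28, against 9.92, 9.95 and 9.99 in MupHe livers. The groups did not overlap in either setting, and the gap was wider in HFD controls. The mean difference was -1.14 ± 0.07 (adjusted p = 2.63e-06). The HFD control difference minus the NASH difference was -0.80, or -0.40 ± 0.07 after division by 2 (adjusted p = 0.002). Substrains of C57BL/6 are known to differ at Nnt, which is deleted in part in C57BL/6J, and the labels name no substrain. CD8kMup livers of the groups marked NC, which carry no IgAk name, had Nnt at 8.56, 8.93 and 8.73, against 10.06, 10.02 and 10.09 in B6 NC livers, so a low level was not particular to IgAk livers.

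Nnmt, which methylates nicotinamide, was at 7.73, 7.69 and 7.27 in IgAkCLM HFD livers, against 8.55, 9.85 and 10.43 in B6 HFD livers. IgAkMup NASH livers were at 6.92, 7.23 and 7.41, against 9.01, 9.04 and 9.43 in MupHe NASH livers. The groups did not overlap in either setting, though the B6 libraries spread over nearly 2 units. The mean difference was -2.01 ± 0.24 (adjusted p = 0.0037). Nnmt, Il18 and Fdx1 lie on chromosome 9 within 3.41 Mb of each other in an interval with 29 tested genes, chosen after their values were seen.

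Il18, an inflammasome-processed cytokine of liver macrophages and epithelium, was at 6.87, 7.17 and 7.21 in IgAkCLM HFD livers, against 6.46, 6.77 and 6.59 in B6 HFD livers. With NASH, IgAkMup livers were at 7.53, 7.26 and 6.90, against 6.46, 6.37 and 6.44 in MupHe livers. The mean difference was 0.64 ± 0.11 (adjusted p = 0.043). Fdx1 was at 9.56, 9.57 and 9.0045 in IgAkCLM HFD livers, against 9.01, 9.01 and 8.80 in B6 HFD livers, and it was the 1 gene of the 12 whose groups overlapped. In NASH the IgAkMup livers had Fdx1 at 9.53, 9.39 and 9.38, against 8.74, 8.72 and 8.76 in MupHe livers, and the mean difference was 0.57 ± 0.09 (adjusted p = 0.041). Il18 shares its span with Bco2 and Tex12, and since the use of strand in counting is not given in the sources used here, reads of overlapping genes may be mixed. The same holds for Tm7sf2 with Vps51, Sult1a1 with Slx1b, Papss1 with a noncoding RNA gene, and Tymp with Ncaph2 and Sco2.

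Mvk and Tm7sf2 belong to cholesterol synthesis, the pathway that SREBP2 switches on when sterols in the endoplasmic reticulum run low. Mvk, mevalonate kinase, was at 7.74, 7.48 and 7.54 in IgAkCLM HFD livers, against 6.98, 6.40 and 6.58 in B6 HFD livers. IgAkMup NASH livers were at 7.61, 7.15 and 7.45, against 7.01, 6.79 and 6.90 in MupHe NASH livers. The mean difference was 0.72 ± 0.11 (adjusted p = 0.029). Tm7sf2, a sterol reductase, was at 9.62, 9.41 and 9.93 in IgAkCLM HFD livers, against 9.17, 8.66 and 8.67 in B6 HFD livers. IgAkMup NASH livers had Tm7sf2 at 9.46, 9.07 and 9.28, against 8.59, 8.47 and 8.78 in MupHe NASH livers, with a mean difference of 0.74 ± 0.11 (adjusted p = 0.032). Neither gene overlapped between IgAk and other libraries within a setting.

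A list of 22 genes of cholesterol synthesis and sterol control, which does not hold Tm7sf2, was tested whole, and 1 of them (Mvk) was called alike. In 21 of 22 both differences were above 0, beside 15.5% of all genes tested, and the list's median was 0.73 in HFD controls, 0.46 in NASH and 0.61 in the mean. In HFD controls alone 9 of the 22 were higher in IgAkCLM livers (8.55% of all genes were), and in NASH alone 1 was higher in IgAkMup livers (2.99% of all genes). Nsdhl, a sterol dehydrogenase, was that gene. It was at 9.50, 9.30 and 9.86 in IgAkCLM HFD livers, against 9.19, 7.82 and 7.94 in B6 HFD livers. With NASH, IgAkMup livers were at 9.46, 9.36 and 9.71, against 8.69, 8.27 and 8.30 in MupHe livers. Its mean difference of 1.16 ± 0.20 stood just outside the threshold (adjusted p = 0.058). Msmo1, a sterol oxidase, had a mean difference of 1.06 ± 0.20 (adjusted p = 0.091), and Stard4, a sterol carrier, had 0.60 ± 0.12 (adjusted p = 0.094). Sqle, squalene epoxidase, had 1.50 ± 0.44 (adjusted p = 0.21), with B6 HFD libraries from 5.68 to 8.92. Insig1, which holds SREBP2 in the endoplasmic reticulum, was the exception, at -0.17 in HFD controls and 0.67 in NASH. When all NC livers entered the same fit, so that 24 libraries set the spread, 4 of the 22 were called alike (Mvk, Msmo1, Nsdhl and Stard4), beside 0.53% of all genes.

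Papss1 makes the activated sulphate that Sult1a1, a phenol sulphotransferase, transfers. Papss1 was at 7.47, 7.65 and 7.34 in IgAkCLM HFD livers, against 6.68, 6.49 and 6.73 in B6 HFD livers. IgAkMup NASH livers were at 7.52, 7.77 and 7.60, against 7.18, 7.07 and 6.90 in MupHe NASH livers. Its mean difference was 0.72 ± 0.08 (adjusted p = 0.0025). Like Nnt, it also set CD8kMup NC livers, at 7.71, 7.57 and 7.48, apart from B6 NC livers, at 6.01, 6.15 and 6.51. Sult1a1 was at 11.37, 11.35 and 11.50 in IgAkCLM HFD livers, against 10.78, 10.90 and 10.75 in B6 HFD livers. With NASH, IgAkMup livers were at 11.30, 11.06 and 11.24, against 10.83, 10.93 and 10.91 in MupHe livers, and the mean difference was 0.45 ± 0.06 (adjusted p = 0.013).

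Dclk3, a kinase of the doublecortin-like family, was at 6.79, 6.56 and 6.11 in IgAkCLM HFD livers, against 5.54, 5.53 and 5.09 in B6 HFD livers. IgAkMup NASH livers had Dclk3 at 6.74, 6.46 and 6.23, against 6.12, 5.90 and 5.71 in MupHe NASH livers. The mean difference was 0.83 ± 0.14 (adjusted p = 0.041). Tymp was at 9.09, 9.64 and 9.36 in IgAkCLM HFD livers, against 10.08, 10.28 and 9.87 in B6 HFD livers. IgAkMup NASH livers were at 9.13, 9.36 and 9.04, against 9.62, 9.73 and 9.74 in MupHe NASH livers, with a mean difference of -0.62 ± 0.10 (adjusted p = 0.038). Like Nnt and Papss1, Tymp set CD8kMup NC livers, at 8.86, 8.80 and 8.78, apart from B6 NC livers, at 9.91, 9.53 and 10.17, and they were about as low as IgAkMup NC livers, at 8.77, 8.82 and 8.58.

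For 11 of the 12 genes the libraries did not overlap in either difference, as was so in the same direction for 1.15% of all genes tested (0.728% higher in both and 0.417% lower in both). The same libraries chose the genes, so that count is a description. At an unadjusted p under 0.05, 1424 genes, 11.6%, passed in the mean of the differences. Each difference passed on its own in 13 genes with the same sign, which included 10 of the 12 and added Nsdhl, Mid1ip1 and Pfkfb1. Both differences had the same sign in 31.5% of all genes and opposite signs in 68.5%. The count of 12 moved between 5 and 93 when single libraries were left out, the highest without IgAkCLM HFD control 3 and the next, 75, without B6 HFD control 2. Serpina3c, Serpina11, Papss1 and Nnt stayed past the threshold in every one of 20 alternative settings and Nnmt in 19. Sult1a1 lost its call in 7 settings, Tymp in 8, Mvk and Tm7sf2 in 9 each, Dclk3 in 11, and Il18 and Fdx1 in 12 each.

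**Figure D3:**
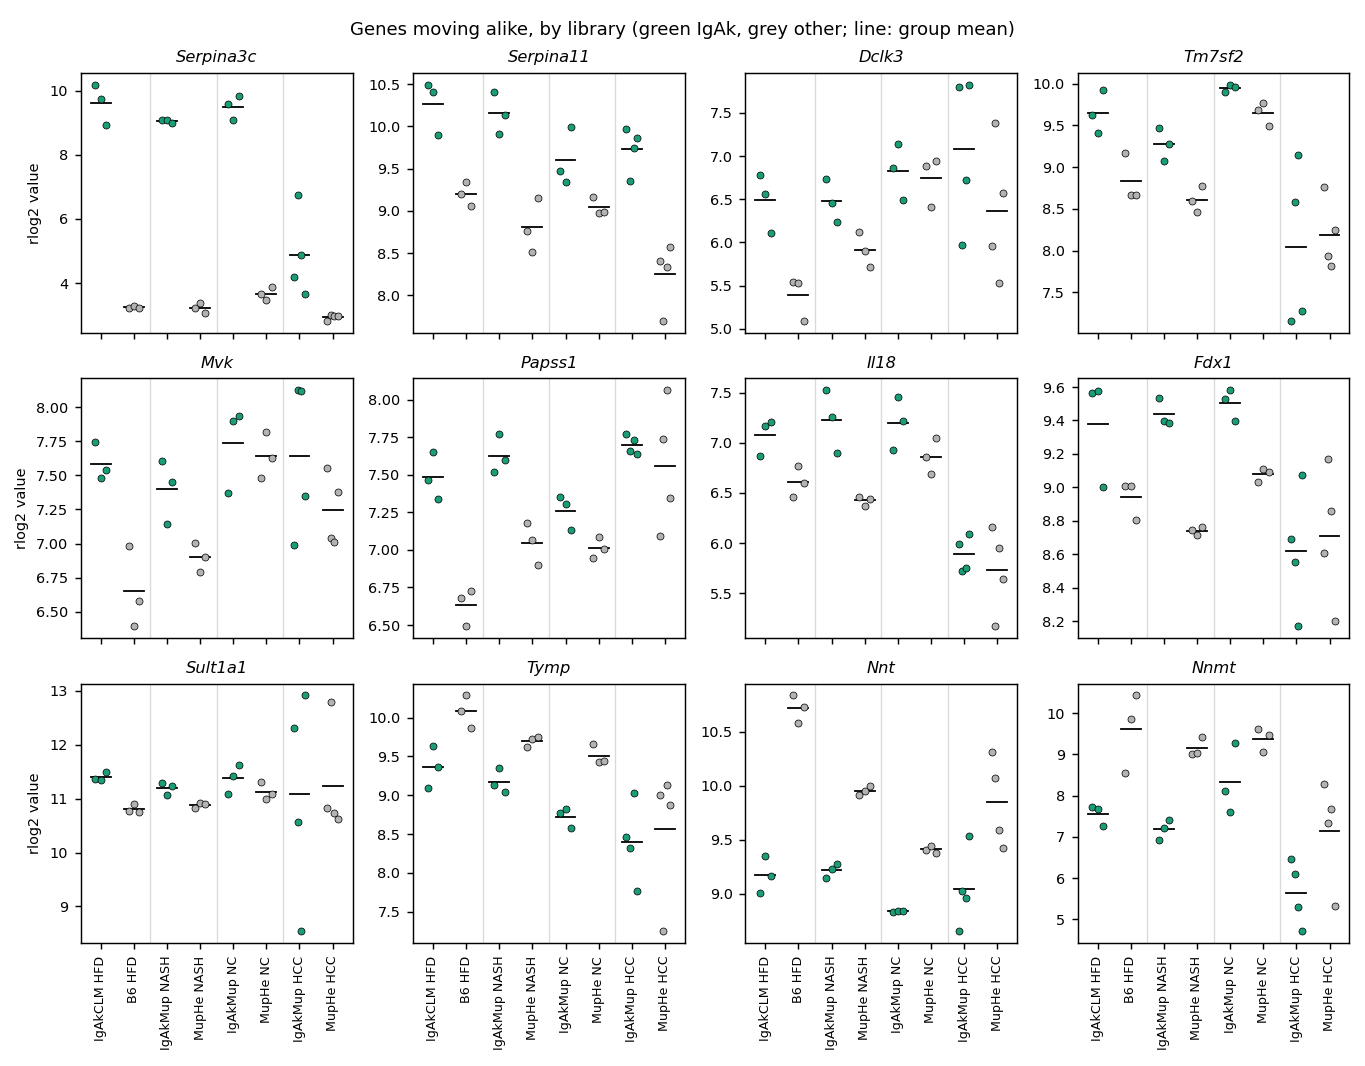
Each panel is 1 of the 12 genes moving alike, with rlog2 values on the y axis, 1 point for each library (n = 3 per group, 4 in HCC) and a line at the group mean; IgAk groups are green and stand left of their grey counterparts. The first 4 columns are the libraries that chose the genes, and the NC and HCC columns show Serpina3c apart in all 4 pairs, with HCC values of 3.66 to 6.74 in IgAkMup against 2.82 to 2.99 in MupHe tumours.

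Livers marked NC (not spelled out in the labels) and tumours (HCC) supplied IgAkMup and MupHe libraries that took no part in choosing the 12 genes. All NC libraries carried 1 tag, Tri NC, and all tumour libraries another, SS H, so these comparisons were matched for it. In NC, 4 genes of 12279 tested (0.0326%) passed the threshold between IgAkMup and MupHe livers, namely Serpina3c, Serpina3m, Nnt and Manf. Serpina3c was at 9.58, 9.08 and 9.85 in IgAkMup NC livers, against 3.67, 3.46 and 3.87 in MupHe NC livers, a difference of 5.83 ± 0.25 (adjusted p = 6.91e-08). CD8kMup and B6 NC livers had Serpina3c between 2.84 and 4.20, so the high level was seen in 9 of 9 IgAk liver libraries and in none of 15 others used. Serpina3m rose by 1.99 in IgAkMup NC livers, which stood at 12.99, 12.61 and 13.31, against 11.00, 10.93 and 11.01 in MupHe NC livers. Nnt fell by 0.57 ± 0.08 in IgAkMup NC livers, at 8.83, 8.84 and 8.84, against 9.41, 9.44 and 9.38 in MupHe NC livers (adjusted p = 0.032). Manf, a secreted factor of the endoplasmic reticulum stress response, fell by 0.62 there (adjusted p = 0.032). In HFD controls Manf was also lower in IgAkCLM livers (difference -0.75; adjusted p = 0.039), and in NASH the difference was 0.10 (adjusted p = 0.81). Of 15 alternative settings, 9 lost the call of Nnt in NC, 8 that of Manf, 3 that of Serpina3m and none that of Serpina3c.

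All 12 genes kept the sign of their mean difference in NC, beside 52.4% of all genes, and in that direction the libraries did not overlap in 7 of the 12, beside 10.8% of all genes. The differences of Mvk and Dclk3 in NC were 0.09 ± 0.22 and 0.08 ± 0.21. In tumours, 9 of 12 kept the sign, beside 48.9% of all genes, and 2 of the 12 did not overlap in that direction, beside 1.75%. No gene of 12434 passed limma's adjusted threshold, while 1362 (11%) had an unadjusted p under 0.05. Serpina11 was at 9.97, 9.35, 9.75 and 9.87 in IgAkMup tumours, against 8.40, 7.70, 8.33 and 8.57 in MupHe tumours, without overlap (difference 1.48 ± 0.21; adjusted p = 0.10). Serpina3c was lower in IgAkMup tumours, at 4.20, 6.74, 4.87 and 3.66, than in any IgAk liver, and still above MupHe tumours at 2.82, 2.99, 2.97 and 2.96 (difference 1.93 ± 0.50; adjusted p = 0.34). Without MupHe HCC 3 the count in tumours was 100 genes, and the fit over all 11 groups gave 1249.

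Plau and Cd8a, to which the transgene and the CD8k name point, were not called in the mean. In each setting both groups carried a Mup name or neither did, and no CD8k group entered. These genes therefore do not check the names. Plau, which encodes urokinase, was at 4.69, 4.87 and 4.99 in IgAkCLM HFD livers, against 5.58, 4.90 and 5.24 in B6 HFD livers. With NASH, IgAkMup livers were at 4.72, 5.68 and 5.66, against 5.87, 6.02 and 5.27 in MupHe livers, and the mean difference was -0.38 ± 0.18 (adjusted p = 0.46; exact two-sided permutation p = 0.11, libraries being exchanged within each setting). Cd8a, the coreceptor of cytotoxic T cells, was higher in NASH, at 3.75, 3.70 and 3.97 in IgAkMup livers, against 3.30, 3.39 and 3.38 in MupHe livers (difference 0.45 ± 0.11; adjusted p = 0.029). In HFD controls it was at 3.23, 3.18 and 3.30 in IgAkCLM livers, against 3.10, 3.33 and 3.19 in B6 livers (difference 0.03 ± 0.11; adjusted p = 0.88). The test of that gap between settings, which is also that of the tag, missed the threshold (-0.21 ± 0.08 after division by 2; adjusted p = 0.057). For Cd8a the mean difference was 0.24 ± 0.08 (limma adjusted p = 0.26), with an exact two-sided permutation p of 0.04. Cd8b1, another CD8 gene, fell below the filter and had an exact two-sided permutation p of 0.205. The permutation p-values are unadjusted. In bulk tissue, more cells of a type and more RNA per cell cannot be told apart. Of 8 tested B cell and plasma cell genes none was called in either combination. Over all genes tested, 0.0981% were called alike and 25.9% with opposite signs. With so few genes, a count of none does not set them apart. The summed level of 20 listed markers (log2) ranged over 12.09 to 12.22 in IgAkCLM HFD livers and 12.14 to 12.47 in B6 HFD livers. In NASH it ranged over 12.13 to 12.38 in IgAkMup livers and 11.96 to 12.16 in MupHe livers. Jchain was at 4.73 to 7.40 in the IgAk liver libraries used and 4.81 to 7.24 in the others. Other members therefore made up most of these sums, which are no measure of plasma cells. Of 7 tested genes of IgA induction and transport, none was called in either combination, which does not set so few genes apart either. Pigr differed by 0.69 in HFD controls (adjusted p = 0.021) and by 0.07 in NASH (adjusted p = 0.83). Tgfb1, which drives the switch to IgA, differed by -0.46 in HFD controls (adjusted p = 0.043) and by -0.08 in NASH (adjusted p = 0.77).

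The named genes moving in opposite ways were led, among those higher in Tri N, by long noncoding RNAs kept in the nucleus. Neat1, the scaffold of paraspeckles, was at 9.86, 10.35 and 9.44 in IgAkCLM HFD and 9.99, 10.47 and 9.45 in MupHe NASH livers, both Tri N. In the SS N libraries it was at 6.76, 8.16 and 7.09 in B6 HFD and 6.77, 6.78 and 8.30 in IgAkMup NASH livers. The 6 Tri N libraries all stood above the 6 SS N libraries, and Tri N minus SS N was 2.61 ± 0.31 (adjusted p = 1.66e-04), while the mean difference by genotype was -0.07 ± 0.31. Malat1, a nuclear speckle RNA, was at 11.21, 11.26 and 11.01 in IgAkCLM HFD and 11.35, 10.94 and 11.09 in MupHe NASH livers, against 7.99, 9.66 and 8.99 in B6 HFD and 9.31, 8.27 and 9.38 in IgAkMup NASH livers. Firre, an X-linked nuclear RNA, was at 7.71, 7.75 and 7.49 in IgAkCLM HFD and 7.54, 7.52 and 7.31 in MupHe NASH livers, against 4.80, 6.19 and 5.55 in B6 HFD and 5.36, 4.91 and 5.88 in IgAkMup NASH livers. Its Tri N minus SS N difference was 2.11 ± 0.20 (adjusted p = 5.8e-05), and that of Malat1 was 2.21 ± 0.25. Neither overlapped between tags.

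Of 16 tested RNAs in a list of nuclear-retained and detained-intron transcripts, 13 were higher in Tri N and none lower, beside 13.2% and 12.7% of all genes. The list's median was 0.90 for Tri N minus SS N and 0.004 for the mean by genotype. It included Leng8 (1.82 ± 0.16), Snhg11 (1.64 ± 0.16), the cyclins of transcription Ccnl2 (1.27 ± 0.12) and Ccnl1 (1.07 ± 0.11), and the splicing kinase Clk1 (1.00 ± 0.11). Others among the 12 named genes with the largest rises were Fam193b (1.87), the splicing proteins Pnisr (1.59) and Srrm2 (1.32), and Cyp2d13 (1.46). The pseudogenes Mug-ps1 (1.93), Cyp2d37-ps (1.77) and Pisd-ps1 (1.43), which share sequence with expressed paralogs, were also among them.

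Mir6236, Lars2 and Rn45s had the largest falls in Tri N among the genes named. Rn45s, the precursor of ribosomal RNA, was at 15.64, 15.85 and 16.16 in IgAkCLM HFD and 16.40, 15.00 and 15.83 in MupHe NASH livers, against 17.27, 17.66 and 16.94 in B6 HFD and 18.15, 16.93 and 16.73 in IgAkMup NASH livers. The tags did not overlap, and Tri N minus SS N was -1.47 ± 0.28 (adjusted p = 0.0034). Lars2, annotated as a mitochondrial leucyl-tRNA synthetase, moved by -1.57 ± 0.26 and Mir6236 by -1.59 ± 0.24. Ptgs2, the inducible prostaglandin synthase, was at 2.39, 2.39 and 2.38 in IgAkCLM HFD and 2.29, 2.45 and 2.23 in MupHe NASH livers. In SS N libraries it was at 3.67, 3.68 and 4.08 in B6 HFD and 3.85, 3.49 and 3.68 in IgAkMup NASH livers, a difference of -1.39 ± 0.09 (adjusted p = 1.5e-05), and it passed the filter on low values only through the SS N libraries. Plat, tissue plasminogen activator, was at 3.54, 3.56 and 3.96 in IgAkCLM HFD and 4.51, 4.32 and 4.08 in MupHe NASH livers, against 4.89, 5.04 and 5.15 in B6 HFD and 5.06, 5.09 and 5.09 in IgAkMup NASH livers (-1.06 ± 0.10; adjusted p = 4.9e-05). The others named were the glutathione transferase Gsta1 (-1.40), Ifi27l2b (-1.08), the immediate early factor Egr1 (-1.02), Wfdc2 (-0.99), the ubiquitin-like modifier Ubd (-0.99), Cpe (-0.91) and S100a11 (-0.91). Of the 24 genes named here for both directions, 19 passed the threshold in each difference on its own. The other 5 passed in HFD controls and not in NASH, where the difference was 0.53 for Gsta1 (adjusted p = 0.51), 0.35 for Ifi27l2b (0.54), 0.44 for Wfdc2 (0.41), 0.43 for S100a11 (0.45) and 0.85 for Ubd (0.076). Those 5 and Egr1 overlapped between tags, Gsta1 at 4.02 to 6.34 in Tri N and 5.47 to 7.42 in SS N libraries.

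**Figure D4:**
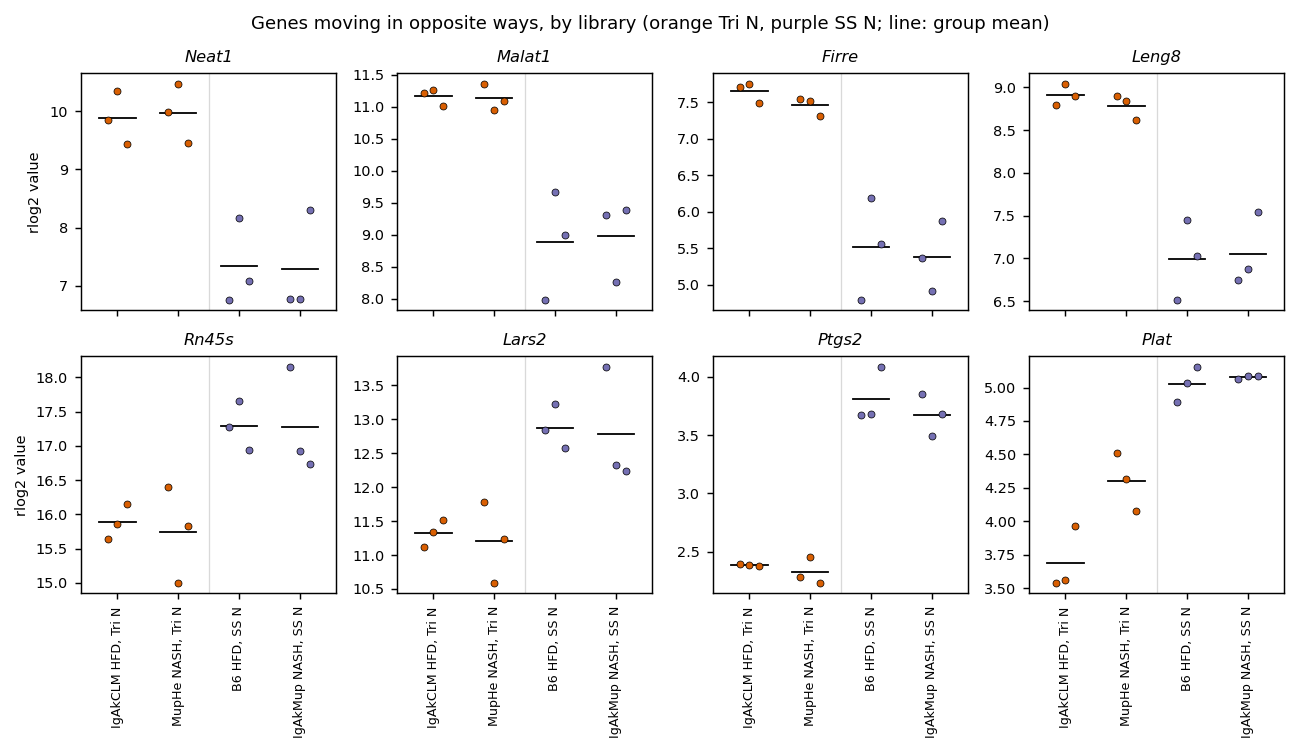
Each panel is 1 gene called with opposite signs, with rlog2 values on the y axis, 1 point for each library (n = 3 per group) and a line at the group mean; the Tri N groups (orange) stand left of the SS N groups (purple). In the upper row Neat1, Malat1, Firre and Leng8 are higher in both Tri N groups, and in the lower row Rn45s, Lars2, Ptgs2 and Plat are lower.

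Of all genes tested, 12.7% were called lower and 13.2% higher in Tri N. Of 26 respiratory chain genes 22 were lower, with a median of -0.37 beside -0.02 for all genes, among them Cox8a (-0.46 ± 0.08) and Uqcrq (-0.45 ± 0.10). Of 23 proteasome subunits 17 were lower (Psmb1 at -0.39 ± 0.07), as were 15 of 26 ribosomal proteins (Rpl13 at -0.44 ± 0.11). In all 3 lists no member was called alike by genotype, beside 0.0981% of all genes, so that count does not set them apart. Members that passed in each difference on its own were 3 of the 22, 2 of the 17 and 3 of the 15. Over all genes, 462 did so with opposite signs, beside 3161 called opposite. Of 17 tested immediate early genes 8 were lower in Tri N, among them Junb (-0.52 ± 0.12) and Btg2 (-0.52 ± 0.18). Btg2 differed by -1.01 in HFD controls (adjusted p = 0.022) and by 0.03 in NASH (adjusted p = 0.96), and Junb by -0.35 (adjusted p = 0.16) and 0.69 (adjusted p = 0.029). Of 9 MHC class II genes 5 were lower, among them H2-Eb1 (-0.57 ± 0.14) and H2-Ab1 (-0.51 ± 0.13), and none of the 5 passed in HFD controls on its own.

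Markers of other cells were called as well. Of 17 stellate cell and fibroblast genes 6 were lower in Tri N, beside 12.7% of all genes, led by Col1a1 (-0.79 ± 0.21) and Col3a1 (-0.63 ± 0.14), and of 13 endothelial genes 5 were higher, beside 13.2%, led by Stab1 (0.69 ± 0.11) and Stab2 (0.67 ± 0.12). Col1a1 differed by -1.42 in HFD controls (adjusted p = 0.011) and by 0.17 in NASH (adjusted p = 0.76), and Col3a1 by -1.16 (adjusted p = 0.0053) and 0.09 (adjusted p = 0.81). None of the 6 stellate genes and 1 of the 5 endothelial genes passed in each difference on its own. Over all genes, 462 did so with opposite signs, beside 3161 called opposite. The summed level of the stellate list (log2) ranged over 12.13 to 12.27 in IgAkCLM HFD livers and 12.33 to 12.46 in MupHe NASH livers, against 12.32 to 12.69 in B6 HFD and 12.46 to 12.67 in IgAkMup NASH livers. The endothelial sum ranged over 12.05 to 12.17 in IgAkCLM HFD livers and 11.81 to 12.01 in MupHe NASH livers, against 11.62 to 11.92 in B6 HFD and 11.77 to 11.83 in IgAkMup NASH livers. No marker of either list was at 0 in all libraries, and their part in the counts for Tri N minus SS N was not tested. Among single genes of metabolism, Mlxipl, the carbohydrate response factor ChREBP, had a large Tri N minus SS N difference (1.14 ± 0.10). So did Nr1i3, the xenobiotic receptor CAR (0.85 ± 0.21). Nr1i3 differed by 1.12 in HFD controls (adjusted p = 0.027) and by -0.58 in NASH, which did not pass on its own (adjusted p = 0.24).

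Transcript length, which played no part in choosing the genes, differed between the sets. The longest GENCODE vM21 transcript had a median of 5692 bases over genes higher in Tri N, 1985 bases over genes lower in Tri N and 3392 bases over all tested genes, with 98% of genes matched. With genes in 5 length bins of equal size, from the shortest to the longest, the share higher in Tri N went 2.5%, 3.8%, 7.75%, 14.5% and 37.4%, and the share lower went 31.3%, 15.6%, 9.34%, 5.73% and 1.63%. The median of Tri N minus SS N ran in the same order, at -0.18 in the shortest and 0.19 in the longest bin, while that of the mean by genotype stayed between -0.008 and 0.02. Median GC content of the transcripts was 48.1% for genes higher in Tri N, 50.4% for those lower and 49.6% for all.

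**Figure D5:**
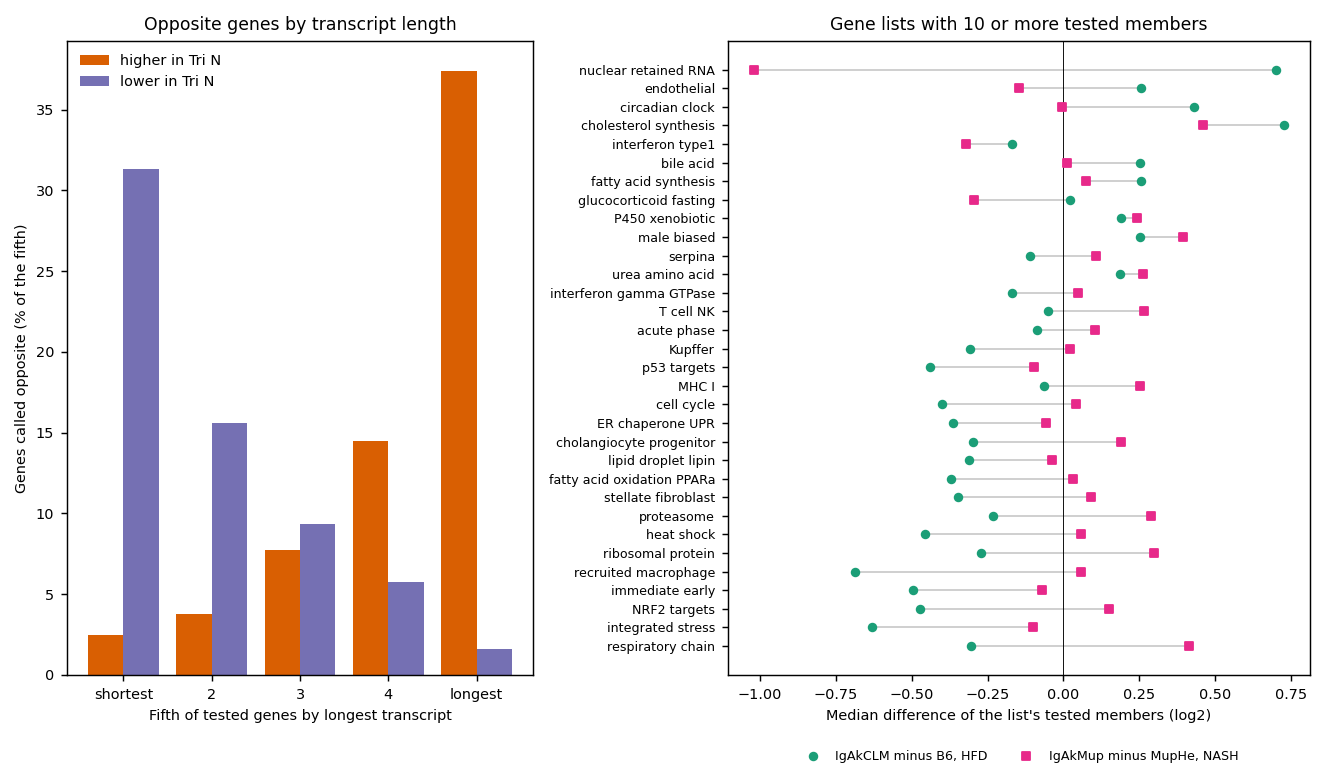
The left panel gives the share of genes (y axis, %) called higher (orange) or lower (purple) in Tri N in each of 5 bins of tested genes by transcript length (x axis), with 37.4% of the longest bin higher and 31.3% of the shortest bin lower. The right panel gives the median difference (x axis, log2) of each gene list with at least 10 tested members in HFD controls (green circles) and NASH (pink squares), where cholesterol synthesis is above 0 in both and nuclear-retained RNA lies at 0.70 and -1.02.

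In NC livers, where 1 tag covers both genotypes, 1610 of the genes higher in Tri N and 1548 of those lower were tested. None was called between IgAkMup and MupHe, beside 0.0326% of all genes, so that count does not set them apart. The median difference there was 0.01 for the genes higher in Tri N and -0.002 for those lower. For all 24 named genes the median of the 12 NC libraries (Tri NC) was nearer to that of the Tri N than to that of the SS N libraries. Firre, for example, had a median of 7.62 in Tri NC, 7.53 in Tri N and 5.46 in SS N. Every NC library carries Tri NC, so setting and tag cannot be told apart there. The 24 were chosen by their gap between Tri N and SS N, and the share over all genes was not counted. For 19 of the 24 the median of the 11 tumour libraries (SS H) was nearer to that of SS N, although tissue and tag go together there and cannot be told apart. Gsta1, at a median of 8.42 in SS H tumours, 6.29 in SS N and 4.57 in Tri N livers, lay outside the range of both liver tags.

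Most genes past the threshold in a single difference were also called with opposite signs in Tri N minus SS N. That quantity is made from the same differences and libraries, so the overlap is partly built in. Whether these genes follow the tag was not tested by it. IgAkCLM minus B6 in HFD controls had 1818 genes past the threshold (14.9%), 1045 higher and 773 lower (6.32%), and 79.6% of them were called with opposite signs while 12 were called alike. IgAkMup minus MupHe in NASH had 937 (7.66%), 366 higher and 571 lower (4.67%), of which 90.3% were called with opposite signs and 10 alike. The differences share no library. Over the 12227 genes they correlated at r = -0.40 (Spearman -0.46), a description over genes that are not independent replicates. Over genes the SD was 0.17 for the mean by genotype and 0.26 for Tri N minus SS N. The threshold was passed by 4872 genes (39.8%) for Tri N minus SS N at an unadjusted p under 0.05. When each difference had to pass on its own, 462 genes ran in opposite ways and 13 alike. Beside these 462, the genes called with opposite signs that passed in HFD controls numbered 1447, and those that passed in NASH 846. Leaving out single libraries gave 2111 to 3436 genes called opposite.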

How the data were processed

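Total polyA RNA of 41 mouse liver and tumour samples was sequenced from stranded mRNA libraries, per the labels' protocols. STAR, Cuffdiff, HOMER, DESeq2 and mm10 are named in the submitters' processing notes, without versions; whether counting used strand is not given in the sources used here. Per gene, the authors deposited regularized log2 (rlog2) values, used as they stand. Columns were matched to groups by name; 35 were used, and 6 with CD8kMup in their names, which the labels did not tie to 1 group, were not. Libraries are numbered as in the column names.

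Group means were fitted with limma 3.58.1 in R 4.3.3, with a trended prior, to the 4 groups compared (12 libraries, 8 residual degrees of freedom), to the NC groups and to the tumour groups. Genes with a mean of at least 3 were kept and p-values adjusted by Benjamini-Hochberg. The 12 largest called rises and falls of each combination were named, with called members of 42 gene lists. Symbols of Gm plus digits, those ending in Rik, and those of LOC, BC, AI, AA or AW plus digits were passed over in naming, though counted. Nsdhl, Msmo1, Stard4, Sqle, Kcnk10, Tc2n, Serpina3m, Serpina1d, Serpina6, Manf and Pigr were chosen after their values were seen. The members and lists were chosen with earlier results of these data known. Marker sums are log2 of summed linear levels. Scripts were tested on simulated data. Igha and other immunoglobulin chain genes were not analysed here. Depth is unknown.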

Additional observations from a re-analysis of the deposited data

Results flagged for a closer look

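The difference by genotype differed between HFD control and NASH livers in 3161 genes, where Tri N minus SS N passed the adjusted threshold with opposite signs in the 2 settings. The setting and the tag cannot be told apart in this contrast. Nnt, lower in IgAk livers in both settings, had an HFD control difference that exceeded the NASH difference in size, the first minus the second being -0.80, or -0.40 after division by 2.

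Tri N minus SS N was 2.61 for Neat1, 2.21 for Malat1, 2.11 for Firre, 1.93 for Mug-ps1, 1.87 for Fam193b and 1.82 for Leng8. It was 1.77 for Cyp2d37-ps, 1.64 for Snhg11, 1.59 for Pnisr, 1.46 for Cyp2d13, 1.43 for Pisd-ps1 and 1.32 for Srrm2. Among genes lower in Tri N it was -1.59 for Mir6236, -1.57 for Lars2, -1.47 for Rn45s, -1.40 for Gsta1, -1.39 for Ptgs2 and -1.08 for Ifi27l2b. It was -1.06 for Plat, -1.02 for Egr1, -0.99 for Wfdc2, -0.99 for Ubd, -0.91 for Cpe and -0.91 for S100a11. Gsta1, Ifi27l2b, Wfdc2, Ubd and S100a11 did not pass the threshold in NASH on its own.

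Single MupHe tumours stood apart from the other MupHe tumours by Dixon's ratio in 3 of the genes moving alike. They were at 2.82 for Serpina3c, 12.79 for Sult1a1 and 7.25 for Tymp. For Serpina3c the other MupHe tumours were at 2.96 to 2.99, so that gap was small. Of 28 groups of 4 tumours examined, 3 passed Dixon's limit, which is set at 95%, so chance alone is expected to pass about 1 in 20 groups.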

How the results depend on the processing

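The count of genes moving alike was 12, and 6 without the filter, 7 with all 11 groups in 1 fit, 27 with library weights, 65 with all groups other than tumours in 1 fit, and 5 to 93 with single libraries left out. It was 27 without B6 HFD 1, 75 without B6 HFD 2, 7 without IgAkCLM HFD 1, 93 without IgAkCLM HFD 3, 6 without MupHe NASH 1 or IgAkMup NASH 6, and 5 without MupHe NASH 2, MupHe NASH 6 or IgAkMup NASH 2. The count of genes called opposite was 3161, and 1610 with all groups, 462 when each difference had to pass on its own, and 2111 to 3436 with single libraries left out. IgAkCLM against B6 HFD gave 1141 genes without the filter, 637 with all groups and 480 to 2384 with single libraries left out. IgAkMup against MupHe NASH gave 545 without the filter, 372 with all groups, 3009 with weights, 1597 without tumours and 160 to 1439 with single libraries left out. In NC the count of 4 became 7 with a mean of at least 5, 2 with all groups or without the trend, 99 with weights, 9 without tumours and 1 to 10 with single libraries left out. In tumours the count of 0 became 1249 with all groups and 0 to 100 with single libraries left out (1 without MupHe HCC 4, 100 without MupHe HCC 3). The cause of these shifts was not tested. Of 770 recomputed values of named genes, 677 kept their call, 93 lost it and 0 reversed. In NC the replicate block gave 9 genes; same-numbered libraries correlated at -0.21 to 0.28 and others at -0.28 to 0.29, so they share only a number. No paired analysis was possible for the other comparisons because their columns carry no replicate numbers from the labels. Without counts, what depth limits is unknown.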

Other observations

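Some genes below the filter also separated the tags. Of 6685 such genes, all SS N libraries lay above all Tri N libraries in 17 and the reverse held in 40. These are small shares of the 6685. Among tested genes, 7.07% had Tri N below SS N without overlap within each setting, and 8.16% the reverse. Some of the gaps were small, such as 0.03 for Glrp1 and 0.04 for Cd300c. The genes named from these sets were chosen after their values were seen and were not tested. Xist, the X inactivation RNA, had 1.66 to 1.76 in Tri N and 2.19 to 2.99 in SS N libraries, all labelled male. It was at 1.65 to 1.81 in SS H tumours and at 1.65 to 1.83 in Tri NC livers, so the higher level was not shared by the other SS tag. The immediate early genes Fosb and Arc had 2.08 to 2.41 and 2.25 to 2.49 in Tri N libraries, against 2.79 to 2.99 and 2.65 to 3.12 in SS N libraries. Mir17hg, host of a microRNA cluster, had 2.80 to 3.46 in Tri N and 2.30 to 2.51 in SS N libraries. Among Y-linked genes, Tri N minus SS N was 0.67 ± 0.09 for Kdm5d (adjusted p = 4.47e-04), 0.43 ± 0.10 for Ddx3y (adjusted p = 0.0079) and 0.39 ± 0.10 for Uty (adjusted p = 0.016). Eif2s3y, at 0.49 ± 0.22, missed limma's threshold (adjusted p = 0.11). Of all genes tested, 13.2% were called higher in Tri N.

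Jchain was at 6.48, 9.77, 8.91 and 7.23 in IgAkMup tumours, against 5.74, 6.84, 6.31 and 5.35 in MupHe tumours, a difference of 2.04 ± 0.62 that missed the threshold (adjusted p = 0.36).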
